A study of Drosophila melanogaster with 4 samples.

Results

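Transcript levels were examined for the probes that the array's design lists under a RefSeq messenger RNA accession, that is, an accession beginning with NM_, which RefSeq gives to the transcripts of protein-coding genes. There were 519 such targets among the 26228 targets of the array. A further 2 targets of this kind were left out of the set by its definition. Control spots were not considered, and where several probes shared an accession the brightest stood for it. The set was defined by the accession alone and by no difference between genotypes. A RefSeq gene table named 177 of the 519 targets, all of them protein-coding in that table, and these belonged to 176 genes because Rab26 has 2 accessions in the set. The other 342 carried no name in the table. Of these, 199 had accessions of the NM_001110 series, 89 had accessions of the NM_001015 series and 54 had other accessions.

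The samples were whole Drosophila melanogaster embryos at late stage 16 and early stage 17, which developed at 25°C. Embryos homozygous for grhIM (+; cn, grhIM, bw, sp; +) were set against wild-type embryos (y; cn, bw, sp; +), so the eye and body markers cn, bw and sp were common to both genotypes while y was carried by the wild-type strain alone. The grhIM homozygotes were picked under fluorescence, which marks embryos with the CKG balancer chromosome, and gut autofluorescence guided the staging of both genotypes. Each genotype had 2 replicates, each a pool of about 500 embryos from which 500 ng of RNA was labelled with Cy3 for its own 1-colour array, so the p-values below measure only the spread between these 4 pools.

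The gene grainy head (grh) encodes a transcription factor of the epidermis and trachea, known for its part in making the cuticle barrier and in repairing it after wounding. The grhIM allele carries a stop codon in the stretch that encodes the DNA-binding domain, so the transcript itself can persist in the mutant. The named RefSeq messenger RNA accessions of the array are a mixed set of genes that were not chosen for a function. They hold housekeeping genes of the ribosome and mitochondrion, receptors and peptides of the nervous system, regulators of cell shape, and many predicted genes with no known role.

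The arrays were of like brightness. The median raw signal lay between 557 and 629 per array, negative-control spots had medians of 53 to 57.5, and no spot was saturated. Replicate 2 was the brighter in both genotypes, at 594 against 557 in grhIM and 629 against 564 in wild-type. The 1 grh target examined was listed under a cDNA clone name and is not among the 519. It had normalised log2 signals of 9.67 and 9.84 in grhIM and 8.75 and 8.89 in wild-type, a difference of 0.93 ± 0.13 (SE, limma adjusted p 0.00948). It was called higher in grhIM, a call that ended on removal of any array (differences of 0.85 to 1.02). The call also ended with spike-in scaling, with normexp, with the mean over probes (0.65) and without a filter on dim targets. By RT-PCR the study found the grh transcript at about the wild-type level in grhIM embryos. A transcript that can persist does not check the labels. None of 50 listed marker genes of embryonic tissues was among the 519, so the tissue label could not be checked from them either. Because whole embryos were used, fewer cells of a type and less RNA per cell cannot be told apart for any gene described here.

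RefSeq messenger RNA targets were dimmer than the array as a whole. Between 57.3% and 64.8% of their probes were well above background on an array, against 75.9% to 83.1% of all probes. Of the 519, 284 were well above background on all 4 arrays, 74 on 1 to 3 arrays and 161 on none. A target was tested where both arrays of at least 1 genotype were well above background, which held for 314 of the 519, or 60.5%, against 77.6% of all targets. The accessions differed widely in this respect. Of the targets with a gene name 140 of 177 were tested, or 79.1%, against 47.7% of the unnamed NM_001110 accessions (95 of 199), 43.8% of the unnamed NM_001015 accessions (39 of 89) and 74.1% of the other unnamed accessions (40 of 54).

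The first question was how many of these transcripts differed between grhIM and wild-type embryos. limma called 38 of the 314 at an adjusted p under 0.01, or 12.1%, where 9.24% of all 20349 tested targets were called. The calls were split evenly, with 19 higher and 19 lower in grhIM, against 4.03% of all tested targets called higher and 5.21% called lower. Among the largest falls were those of the uncharacterised gene CG9757 (20.2-fold) and the tubulin-modifying enzyme TTLL1A (14.5-fold), and the named rises included those of the chemosensory receptor Ir76a, dim in wild-type, and of CG9577 (2.43-fold). The median size of a called change was 1.41 on the log2 scale, or 2.65-fold, below the 1.65 of all called targets, and the smallest was 0.85. The median difference of the 314 was 0.03 and that of all tested targets was -0.01. The standard deviation of the genotype differences was 0.90 for the 314 and 0.89 for all tested targets. The differences ranged from -4.34 to 4.17 in the 314 and from -12.65 to 12.45 in all tested targets. At least a 2-fold difference was seen in 54 of the 314, or 17.2%, against 11.5% of all tested targets. Of these 54, 31 were called and 23 were not. The count of 38 rested on each array to a different degree. Leaving out a grhIM array gave 20 calls (replicate 1 removed) or 31 calls (replicate 2 removed), and removing wild-type replicate 2 gave 15. Without wild-type replicate 1 limma called 0 of 348 tested, although 171 had an unadjusted p under 0.05 and the smallest adjusted p was 0.0123. It was also 5, of which 1 was higher, with normexp background correction in place of the scanner's own, and 16 with dim targets included in the test.

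**Figure D1:**
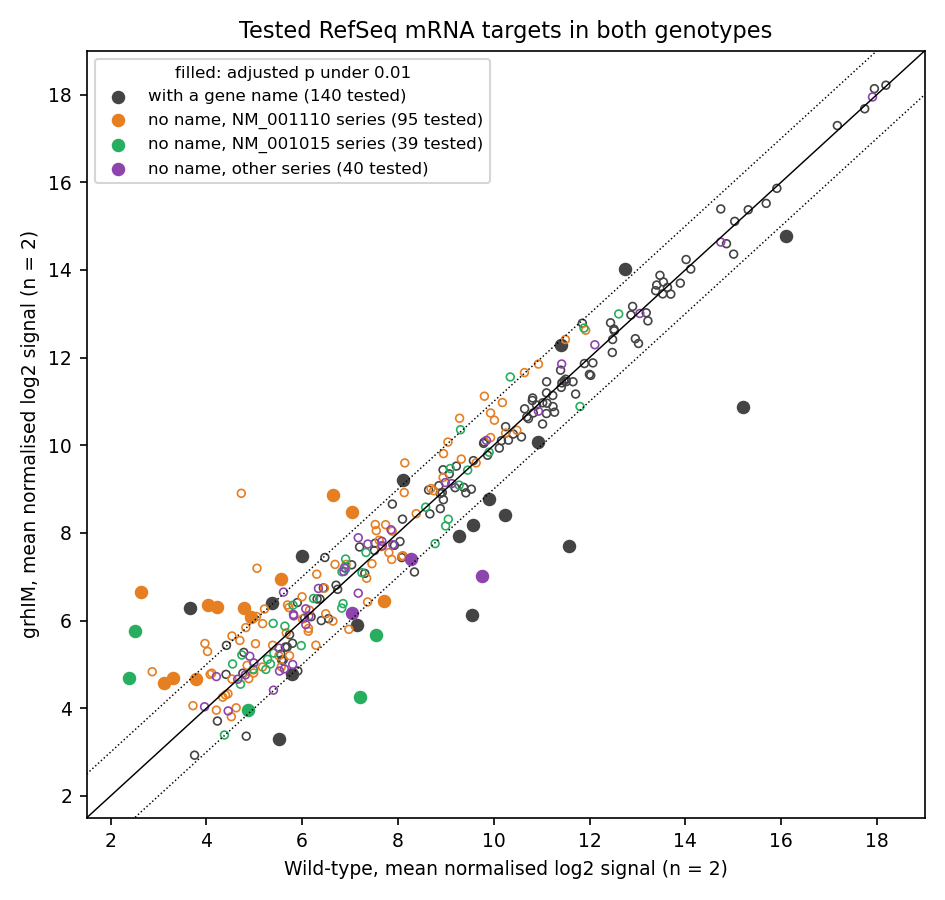
Mean normalised log2 signal in grhIM (vertical axis, n = 2) against that in wild-type (horizontal axis, n = 2) for the 314 tested RefSeq messenger RNA targets, coloured by class of accession, with filled points for an adjusted p under 0.01 and dotted lines at a 2-fold difference. Most points lie between the dotted lines, CG9757 and TTLL1A lie farthest below the diagonal, and the called NM_001110 accessions lie above it with 1 exception.

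Among the 140 tested targets that had a name, limma called 18, or 12.9%, with 6 higher and 12 lower in grhIM. Of all tested targets 9.24% were called, 4.03% higher and 5.21% lower. The 140 differed by less than 0.5 on the log2 scale in 71.4% of cases, against 72.5% of all tested targets. Their median difference was -0.06, against -0.01. They are taken up by role, in small groups that were formed from gene names alone. Counts within a group are descriptive and are not read against the 9.24%.

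**Figure D2:**
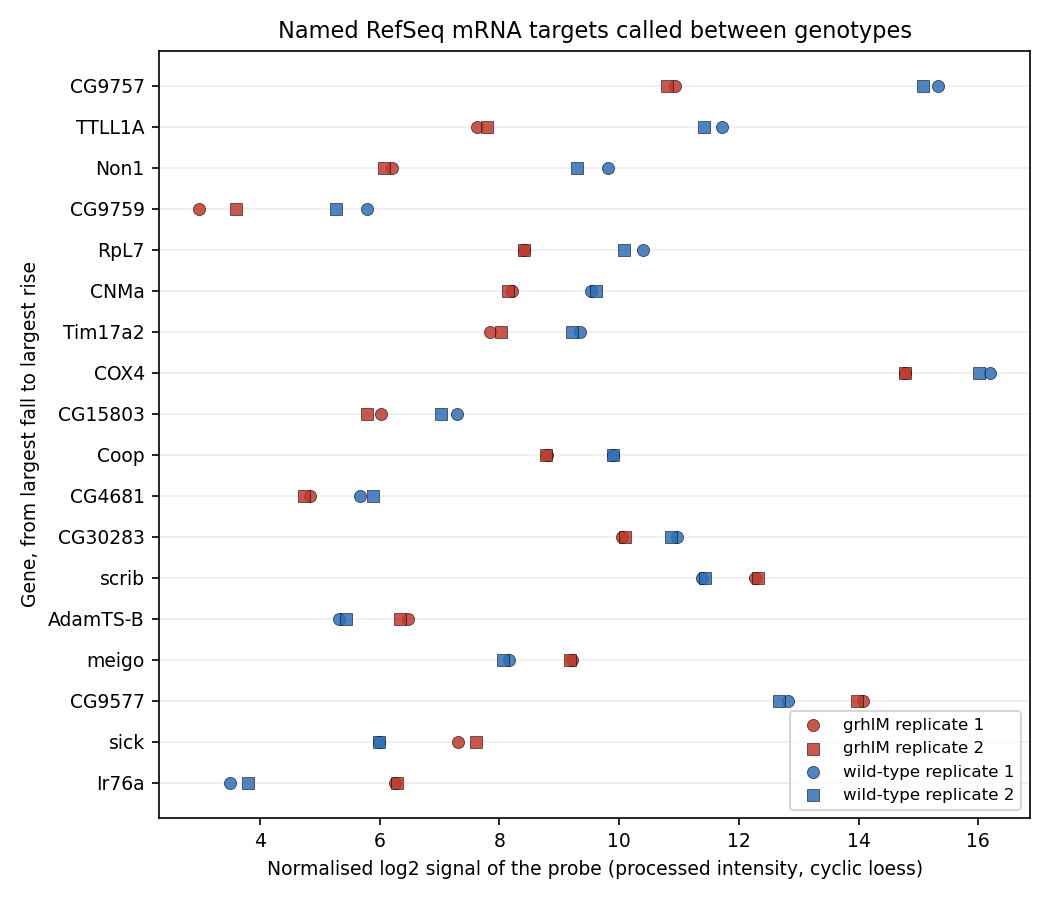
Normalised log2 signal on each array (horizontal axis) for the 18 named genes called between genotypes, ordered from the largest fall at the top to the largest rise at the bottom. The genes were selected by their adjusted p, which favours arrays of grhIM (red) and wild-type (blue) that do not overlap, and none overlap here. Among all 20349 tested targets, both grhIM arrays were above both wild-type arrays in 6239 and below both in 6835. The replicates of a genotype differ by at most 0.63.

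The genes of the ribosome and its assembly held 6 targets, and RpL7 and Non1 fell while the others did not pass the test. RpL7 (NM_078807), a protein of the large ribosomal subunit, had log2 signals of 8.41 and 8.41 in grhIM and 10.40 and 10.08 in wild-type. Both grhIM values thus lay well under the lower wild-type value, and the difference was -1.83 ± 0.15 (SE; limma adjusted p 0.00192). Non1 (NM_136640), a nucleolar GTPase needed to assemble the large subunit, had signals of 6.21 and 6.07 in grhIM and 9.81 and 9.30 in wild-type. It showed the greater fall, by 3.42 ± 0.20 (SE; limma adjusted p 0.000813), and its wild-type replicates were the farther apart. The ribosomal proteins RpL29, RpL11, RpS29 and sta differed by -0.07 to 0.19. Among the 5 cytosolic ribosomal proteins of a fixed list, then, 1 fell and none rose, with a median of 0.01. The call of RpL7 held in each alternative except the fit without wild-type replicate 1 (-1.67, limma adjusted p 0.016). Non1 was also not called with normexp, where its difference was -1.81 (limma adjusted p 0.0157).

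Mitochondrial genes made up 13 targets, and COX4 and Tim17a2 fell. COX4 (NM_136169), a nuclear-encoded subunit of cytochrome c oxidase at the end of the respiratory chain, had signals of 14.78 on each grhIM array and of 16.20 and 16.02 in wild-type. The grhIM replicates were almost equal and both lay below wild-type, a difference of -1.33 ± 0.12 (SE; limma adjusted p 0.00276). Tim17a2 (NM_141267) encodes a subunit of the translocase that brings proteins across the inner membrane. Its signals were 7.84 and 8.03 in grhIM and 9.35 and 9.21 in wild-type, and it was lower by -1.34 ± 0.13 (SE; limma adjusted p 0.00342). The other 11 were not called. COX5BL, a gene related to another oxidase subunit, had grhIM signals of 2.73 and 3.996, of which the first was not well above background, and wild-type signals of 4.62 and 5.05. Its fitted difference of -1.47 ± 0.44 (SE, limma adjusted p 0.0801) was -0.20 with normexp, -0.85 without grhIM replicate 1 and -2.10 without grhIM replicate 2. The fit with a replicate block called COX5BL (limma adjusted p 0.00605). Tim10, a chaperone between the mitochondrial membranes, was at -0.65 (limma adjusted p 0.0268). Of the 7 respiratory chain genes on the fixed list, COX4 alone fell and none rose, with a median of -0.05. The 3 mitochondrial ribosomal proteins, mRpL40, mRpL52 and mRpS33, lay between -0.25 and -0.03. COX4 was not called without grhIM replicate 1 (limma adjusted p 0.0154), without wild-type replicate 1 (0.0205) or without the filter on dim targets (0.0108), and Tim17a2 was not called under these settings, without wild-type replicate 2 or with normexp.

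Regulators of polarity, junctions and the cytoskeleton also held 13 targets, all of them tested. TTLL1A (NM_132969), of the tubulin tyrosine ligase-like family of enzymes that modify microtubules, had signals of 7.62 and 7.80 in grhIM and 11.71 and 11.42 in wild-type. No array of a genotype came near those of the other, and the fall was -3.86 ± 0.15 (SE; limma adjusted p 0.000349). Its relative TTLL4A was at -0.54 (limma adjusted p 0.0595) and was not called. The gene sick (NM_136167), with known roles in the actin cytoskeleton and in activation of the immune factor Relish, was higher in grhIM. Its signals were 7.31 and 7.62 in grhIM and 5.99 and 5.99 in wild-type, a rise of 1.47 ± 0.14 (SE; limma adjusted p 0.00344). For scrib (NM_170277), a scaffold of apico-basal polarity in epithelia, signals were 12.27 and 12.32 in grhIM against 11.38 and 11.44 in wild-type. This rise was small and came to 0.89 ± 0.11 (SE; limma adjusted p 0.00689). The study lists scrib among its misregulated genes on these same arrays, so its direction here is no independent evidence. The junction protein pyd, a relative of vertebrate ZO proteins, was at 0.00, the actin regulators wash and Arpc3A were at 0.35 and 0.22, and the myosin phosphatase subunit Mbs was at -0.70 (limma adjusted p 0.0345). Counts over the fixed list of adhesion and polarity genes were 1 higher and 0 lower of 3, the others being the 2 accessions of the vesicle GTPase Rab26 at -0.10 and -0.07. The call of TTLL1A was lost only without wild-type replicate 1 (-3.70, limma adjusted p 0.0123). That of scrib was lost when any array was left out (limma adjusted p 0.0199 to 0.052), with spike-in scaling (0.0608), with normexp (0.0115) and without the filter (0.022), and sick was not called with normexp (0.66), with spike-in scaling, without the filter or when a wild-type array was removed.

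Among 10 neuropeptide, receptor and channel genes, 8 were tested, with 1 higher and 1 lower. Ir76a (NM_001104177), an ionotropic receptor of chemosensory neurons, was dim in wild-type, with signals of 3.50 and 3.81, of which the first was not well above background. On the grhIM arrays it stood at 6.26 and 6.299. The rise of 2.62 ± 0.15 (SE; limma adjusted p 0.000731) was the largest fitted value of any named gene here, but it became 1.16 in the authors' deposited table, where it was still called, and 0.69 with normexp, where it was not (limma adjusted p 0.099) and lay below the 1.25 of CG9577. It was not called without wild-type replicate 1 either (limma adjusted p 0.0124). CNMa (NM_139412), which encodes a neuropeptide, had signals of 8.22 and 8.15 in grhIM and 9.54 and 9.61 in wild-type. The replicates of each genotype lay close together, and the gene fell by 1.39 ± 0.11 (SE; limma adjusted p 0.00191). Snmp1, a membrane protein of olfactory neurons, was at 0.97 ± 0.15 (SE) and missed the threshold (limma adjusted p 0.0127). The octopamine receptor Oamb, the glutamate receptor subunit Nmdar2, the potassium channel SK, the G protein subunit Gbeta5 and the receptor smog were not called and lay between -0.33 and -0.06. The neuropeptide Trissin and the receptor Ir40a were not well above background on any array and were not tested. CNMa was not called with normexp (limma adjusted p 0.0208), without grhIM replicate 1 (0.0104) or when a wild-type array was removed.

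Transcription and cell fate genes numbered 8, of which 7 were tested and 1 fell. Coop (NM_136442), a corepressor that acts with the factor Pangolin on Wingless target genes, had signals of 8.79 and 8.78 in grhIM and 9.90 and 9.89 in wild-type. Replicates were nearly identical, and the difference was -1.11 ± 0.11 (SE; limma adjusted p 0.00329). The zinc-finger and homeodomain factor zfh1 was at -0.54 (limma adjusted p 0.0404), the factor kn at -0.25 and the cyclin-dependent kinase inhibitor dap at 0.25, none of them called. Coop was not called without any 1 of the 4 arrays (limma adjusted p 0.012 to 0.0258), with normexp (0.02) or without the filter on dim targets (0.0126).

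In immunity and detoxification no target was called of the 5 tested among 7. Sod1, which removes superoxide, came closest in the upward direction, with 15.38 and 15.41 in grhIM and 14.83 and 14.65 in wild-type, a difference of 0.65 ± 0.12 (SE; limma adjusted p 0.0226). The transporter Mrp4 lay in the other direction, at -0.82 ± 0.16 (SE; limma adjusted p 0.0256). The NF-kappaB factor Dif was at 0.36, the peptidoglycan recognition protein PGRP-LA at -0.50 and Cyp4g1, a cytochrome P450 that makes cuticular hydrocarbons, at 0.27. The gene of the antimicrobial peptide drosocin, Dro, was well above background on 1 array and was not tested. The fixed lists of cuticle and chitin genes, of melanisation genes, of proteases and serpins, and of proteasome subunits matched no symbol among the named targets. These lists work by symbol alone. Whether unnamed accessions, or genes named only by a CG number such as CG30283, belong to these groups is not known here.

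Genes of RNA processing and repair held no call either among 8 tested. The mismatch repair gene spel1 had signals of 4.90 and 4.81 in grhIM and 6.07 and 5.75 in wild-type. Its difference of -1.06 ± 0.15 (SE) just missed the threshold (limma adjusted p 0.0107). Scaling to the spike-ins brought it under the threshold (limma adjusted p 0.00704), as did scaling to the 75th percentile (0.00719). So did a test among targets above background on all arrays (limma adjusted p 0.00883) and the fit with a replicate block (0.00359). The difference was only -0.38 in the deposited table (limma adjusted p 0.0544) and -0.22 with normexp (0.241). The remaining 7, with the RNA-binding protein how, the RNA helicase bel and the exoribonuclease pcm among them, lay between -0.33 and 0.27. Of 5 genes of the male reproductive tract and testis, 3 were tested and none was called, with Acp95EF at 0.30, Mst36Fa at -0.06 and Acp62F at -0.51.

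**Figure D3:**
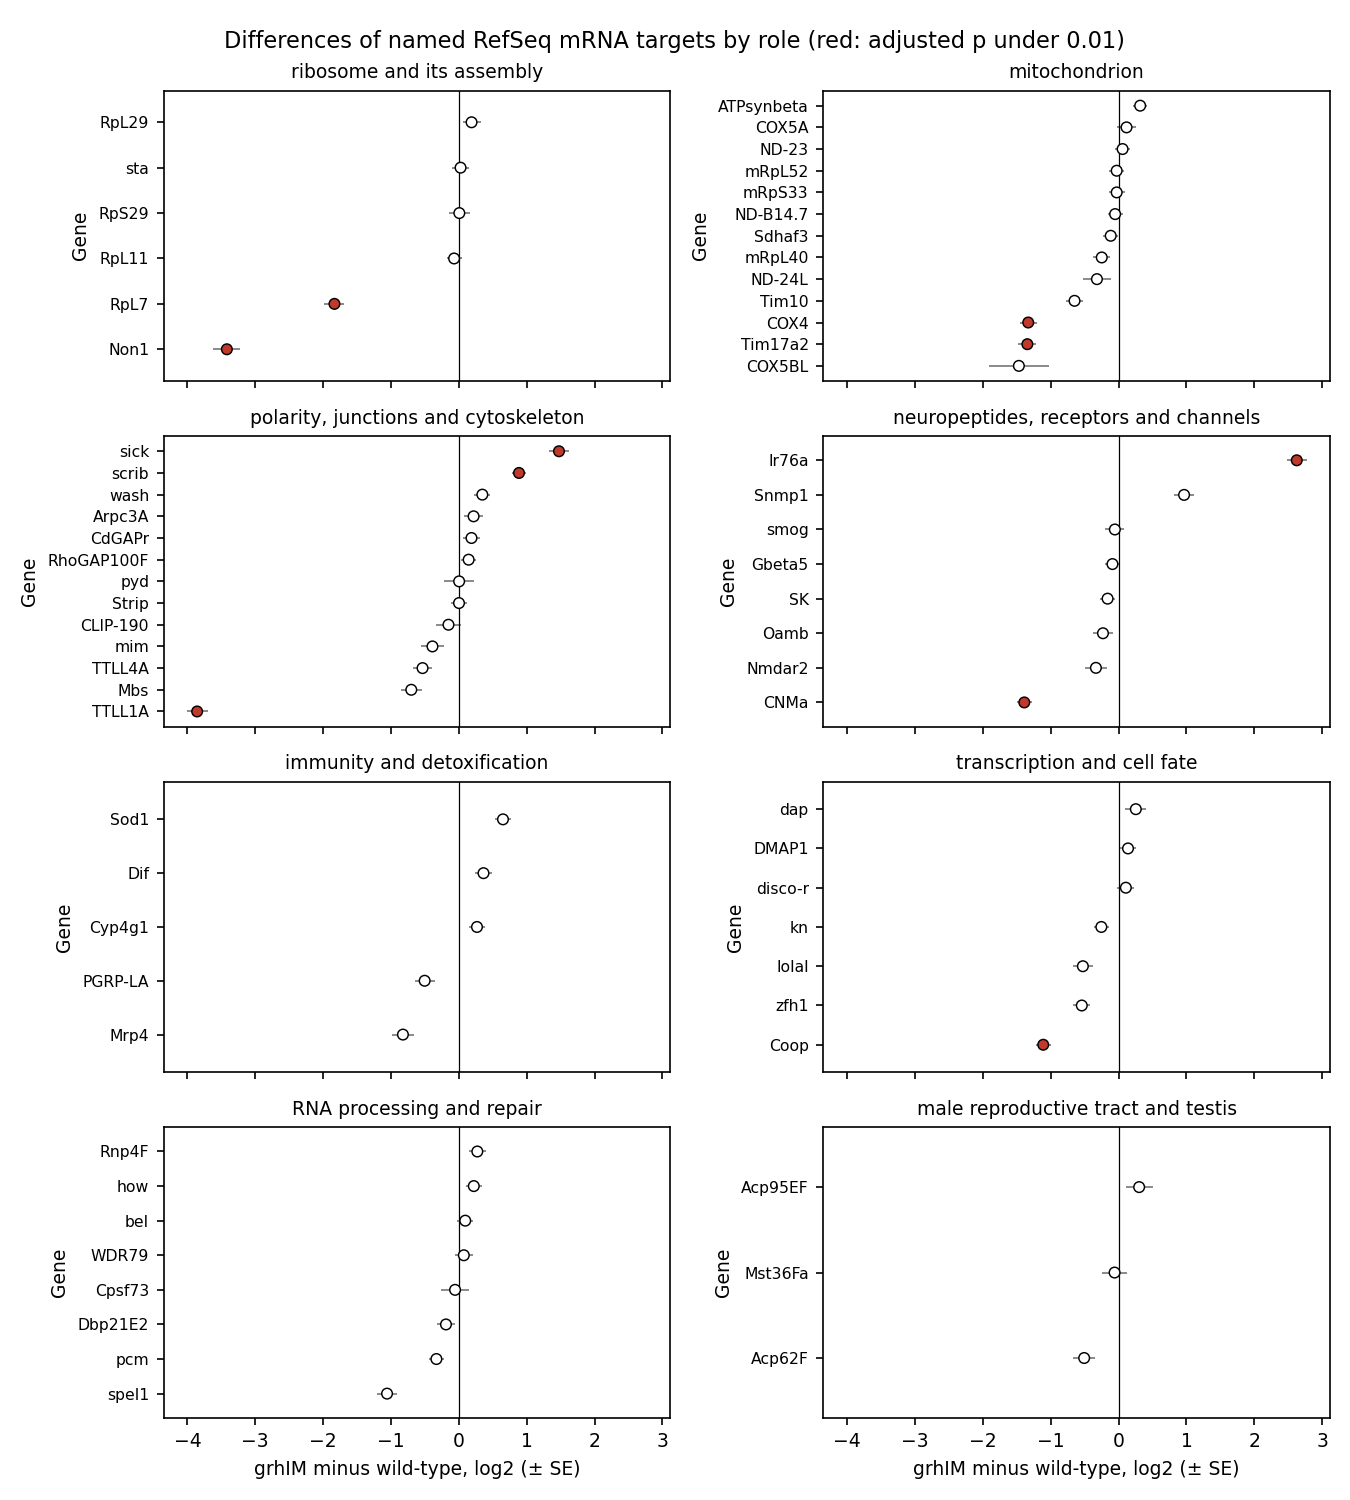
Difference between grhIM and wild-type on the log2 scale (horizontal axis, with SE) for every tested gene in each of the 8 role groups, red where the adjusted p was under 0.01. In the ribosome panel RpL7 and Non1 lie at -1.83 and -3.42 while the other genes lie between -0.07 and 0.19, and the panels for immunity, RNA processing and the male tract hold no called gene.

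The largest fall of the set belonged to a gene with no role stated here. CG9757 (NM_057327) had signals of 10.93 and 10.80 in grhIM and 15.33 and 15.07 in wild-type. The groups were separated by far more than their replicates, at -4.34 ± 0.14 (SE; limma adjusted p 0.00026). The call was kept under every alternative but the fit without wild-type replicate 1 (-4.21, limma adjusted p 0.0123), and normexp left the size at -4.19. Its neighbour in the genome by the RefSeq gene table, CG9759 (NM_142039), had signals of 2.98 and 3.61 in grhIM, neither well above background, and 5.78 and 5.27 in wild-type. For a target at background in 1 genotype the fold is taken against the higher of its own signal and a floor. The floor is the lowest signal well above background on each array of that genotype, and it is no limit of detection. On wild-type replicate 1 it was 3.03, while an unnamed accession at 4.665 there was not well above background. Folds against it are therefore not lower bounds. Against this floor CG9759 was 4.13-fold lower in grhIM (limma adjusted p 0.00719). It was not called in the deposited table (-0.52), with normexp (-0.26), without the filter or when a wild-type array was removed. The pair was the single adjacent pair of 5 among the named targets in which both genes were called. In the other 4 pairs, Acp95EF with Spase22-23, Arpc3A with ND-23, CG8860 with wash, and Dbp21E2 with Saf6, neither gene was called.

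Smaller changes were called in 6 further genes without a role group. CG9577 (NM_134531) had signals of 14.08 and 13.98 in grhIM and 12.83 and 12.67 in wild-type, a rise of 1.28 ± 0.12 (SE; limma adjusted p 0.00311), and it was among the 5 calls kept with normexp, with CG9757, TTLL1A, RpL7 and COX4. The gene meigo (NM_001104383), which encodes a protein of the endoplasmic reticulum needed to target olfactory dendrites, rose from 8.16 and 8.05 to 9.21 and 9.19, by 1.09 ± 0.11 (SE; limma adjusted p 0.00395). The secreted metalloprotease AdamTS-B (NM_132019) rose from 5.32 and 5.44 to 6.48 and 6.34, by 1.03 ± 0.12 (SE; limma adjusted p 0.00619). For these genes the lowest grhIM array stood above the highest wild-type array, as it did in 6239 of all 20349 tested targets. Falls were called in CG15803 (-1.24 ± 0.16, SE), CG4681 (-0.998 ± 0.13, SE) and CG30283 (-0.85 ± 0.11, SE), with limma adjusted p of 0.00713, 0.00845 and 0.00871. The calls of meigo, AdamTS-B, CG15803, CG4681 and CG30283 were lost on removal of any array, without the filter and with normexp, where AdamTS-B was at 0.30, CG4681 at -0.30 and CG15803 at -0.54. All of them but CG15803 were also lost with spike-in scaling. CG4681 and AdamTS-B were not called in the deposited table (-0.41 and 0.55) or by the trend and robust fit, and CG4681 was not called with 75th percentile scaling or quantile normalisation, and CG9577 was not called without the filter or on removal of grhIM replicate 1 or of a wild-type array.

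The unnamed accessions held 20 calls among 174 tested, or 11.5%, against 9.24% of all tested targets, with 13 higher and 7 lower in grhIM. The largest called rise was in NM_001110561, with signals of 6.76 and 6.56 in grhIM, while the wild-type arrays gave 3.41 and 1.85, neither well above background. Against the floor described for CG9759 the rise was 12.5-fold (limma adjusted p 0.0075), and the wild-type replicates differed from each other by 1.56. NM_001015266 had signals of 5.63 and 5.91 in grhIM and 2.69 and 2.33 in wild-type, again with no wild-type array well above background. Against the same floor it was 7.69-fold higher in grhIM (limma adjusted p 0.00073). Neither of these rises was called without wild-type replicate 1 or with normexp (0.73 and 0.54), the first was not called without the filter, and the fitted values of 4.03 and 3.26 became 1.14 and 0.84 in the deposited table. NM_001015300 fell from 7.53 and 6.87 in wild-type to 4.02 and 4.48 in grhIM, the first of these not well above background, a fitted difference of -2.95 ± 0.28 (SE; limma adjusted p 0.00309), which the deposited table gave as -1.46 and which was not called with normexp (-0.88), without the filter or when a wild-type array was removed. NM_165803 fell from 9.74 and 9.77 to 6.92 and 7.11, by 2.74 ± 0.12 (SE; limma adjusted p 0.000438), and was not called with normexp or without wild-type replicate 1. In both, all grhIM arrays were below all wild-type arrays, as in 6835 of all 20349 tested targets. Over the whole set, 5 called rises had no wild-type array well above background, where 0.388% of all tested targets were called so, and 2 called falls had no grhIM array well above background, where the share was 0.894%. Such targets, NM_001110561, NM_001015266 and CG9759 among them, passed the filter only through the genotype in which they were high. Their p-values draw on signals at background, so these calls and counts lend no support beyond the difference in detection.

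The accession series did not behave alike, a grouping that was chosen after the values were seen. The 95 tested NM_001110 accessions had a median difference of 0.36, and 66 of them, or 69.5%, were above 0, against 48.6% of all tested targets. Their 12 calls, or 12.6% against 9.24% of all tested targets, were 11 higher and 1 lower. The 39 tested NM_001015 accessions had a median of -0.06 with 2 called higher and 3 lower, and the 40 other unnamed accessions had a median of 0.03 with 3 called lower. The NM_001110 accessions were also the least repeatable in wild-type. Their standard deviation between replicates was 0.52 in wild-type and 0.21 in grhIM, where the named targets had 0.21 and 0.19 and the whole array 0.25 and 0.19. The wild-type replicates differed by more than 1 on the log2 scale in 11 of the 95, or 11.6%, against 1.45% of all tested targets and none of the 140 named targets, and replicate 1 was the higher in each of the 11. The NM_001015 accessions came next, with a wild-type standard deviation of 0.34 and such a gap in 2 of 39, or 5.13%, replicate 1 again the higher in both. The median difference of the grhIM mean from wild-type replicate 1 was 0.23, with 61 of 95 above 0, and that from wild-type replicate 2 was 0.59, with 68 above 0. Both grhIM arrays were above both wild-type arrays in 47 accessions and below both in 19, against 6239 and 6835 of all 20349 tested targets. The median difference of the series was 0.401 in the fit lacking wild-type replicate 1 and 0.225 in the fit lacking replicate 2. Calls in these fits are not read for the series, since they fell across the whole set. The part of the wild-type spread in the result was not tested.

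**Figure D4:**
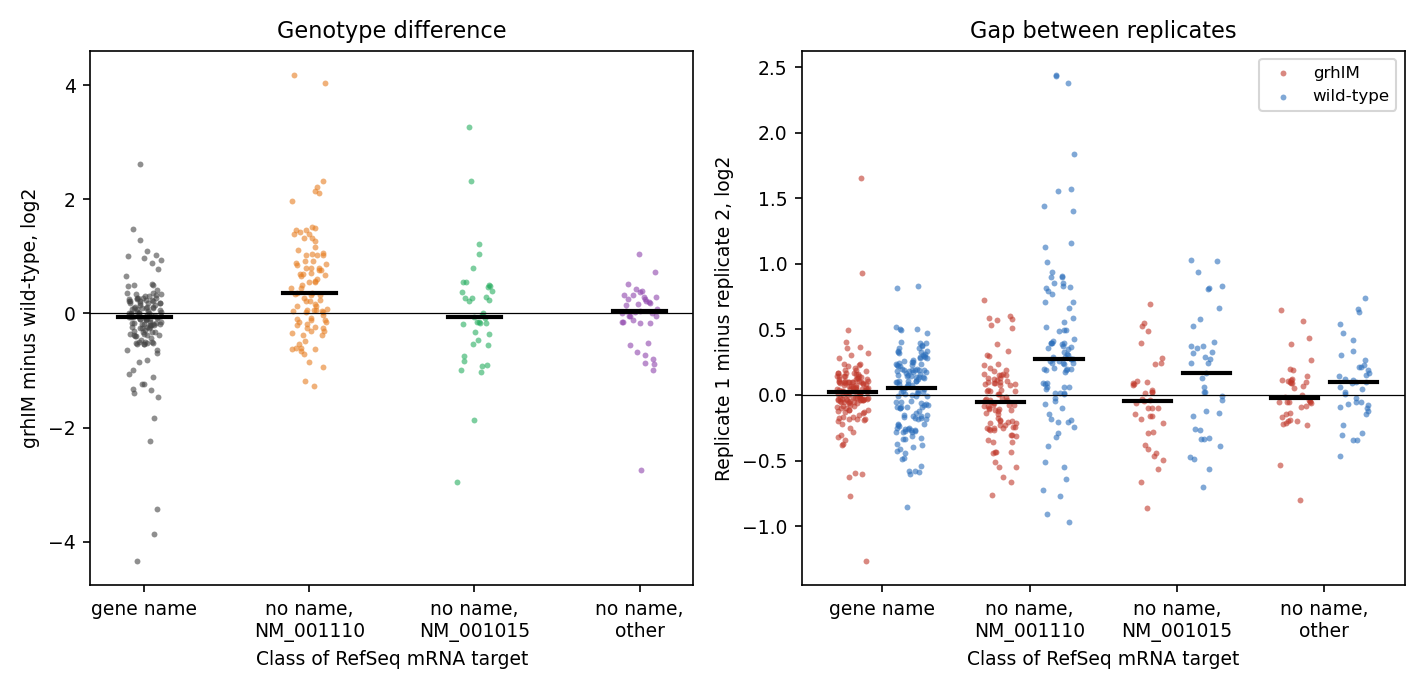
Difference between genotypes (left, log2) and replicate 1 minus replicate 2 of each genotype (right, log2) for the tested targets in each class of accession, with the black bar at the median. The NM_001110 points lie higher for the genotype difference and for the wild-type replicates, with medians of 0.36 for the genotype difference and 0.28 for the wild-type replicates, while the named genes centre near 0 on each.

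None of the brightest members was called. The 5 targets with the highest mean signal were the ribosomal proteins sta, RpL29 and RpL11, the oxidase subunit COX5A and an unnamed accession, and their differences of -0.07 to 0.19 had standard errors of 0.11 to 0.13. At the other end, 23 targets had a fitted difference of at least 2-fold and no call. The largest, an unnamed NM_001110 accession, had signals of 9.17 and 8.64 in grhIM and 5.65 and 3.81 in wild-type, a difference of 4.17 ± 0.62 (SE; limma adjusted p 0.0117) between wild-type replicates that were themselves 1.84 apart. The named genes of this kind were COX5BL and spel1, described above, and CG12723 and CG4286. CG12723 was at -1.24 ± 0.56 (SE; limma adjusted p 0.196). Its grhIM replicate 1 at 7.94 lay near the lower wild-type value of 8.09, and replicate 2 at 6.28 lay far below both wild-type values. CG4286 was at 1.01 ± 0.20 (SE; limma adjusted p 0.0257). CG12723 was at -2.06 without grhIM replicate 1 and at -0.43 without grhIM replicate 2. CG4286 was called in the fit with a replicate block (limma adjusted p 0.00524), and was at 0.39 in the deposited table and 0.24 with normexp. Nearest to the threshold on its called side were CG30283 and an unnamed accession at -0.86 ± 0.12 (SE; limma adjusted p 0.0097).

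Few members could be checked with a second probe. Of the 26 that had several probes, 12 had at least 2 tested probes, and these gave differences of the same sign in 6 and of opposite sign in 6. The gap between the probes of a target was 0.03 to 1.02. For CG1024 the brighter probe was at -0.21 and the other at 0.81, and for how the 3 probes were at 0.22, 0.10 and -0.51, none of them called. Of the 38 called members, 1 had a second tested probe, an unnamed NM_001110 accession with differences of 1.39 and 1.85. The other calls rest on a single tested probe each. Repeat spots of 4 members had standard deviations of 0.05 to 0.54 on an array, with a median of 0.09. TTLL1A, with 10 spots on an array, had standard deviations between spots of 0.11 and 0.15 on the log2 scale on 2 of the arrays. On each of these 9 spots were left after flagged ones were removed. Fewer were left on the other arrays, and no spread was taken there.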

How the data were processed

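RNA from 4 embryo pools was hybridised to 1-colour Agilent arrays on 1 slide, with 43603 gene spots. The authors extracted spot intensity from the scans with Agilent Feature Extraction, in version 10.7.3.1 and with a dm3 design per the file headers. Its processed intensity, linear in scale, had the background of its own array subtracted and no scaling across arrays. Flags of 0 or 1 in the deposited files mark spots as outliers, non-uniform, saturated or well above background. The authors' deposited table of normalised intensity served as an alternative.

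Processed intensities were taken to log2, flagged and control spots were left out (15 of 32162 probes), and spots of a probe were averaged. The arrays were normalised by cyclic loess (limma 3.58.1, R 4.3.3, span 0.7, 3 iterations), since the study normalised its samples jointly by loess. A probe was well above background where 50% or more of its spots carried that mark. Every tested target of the array was fitted with limma (lmFit and eBayes, genotype as the only term), with Benjamini-Hochberg adjustment over all 20349, and called at an adjusted p under 0.01. The fit was tested on simulated data with shifts larger than the median called change and with every target above background. Smaller changes and signals at background were not covered by it. The array number, 2 per genotype, limits the precision.

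Gene names came from a RefSeq table of assembly Release 6, a build other than that of the array design. Its coordinates served only to order genes along each chromosome for the adjacent pairs. No sequences or promoters were used here, so a planned motif count was not run. The members and lists were chosen with earlier results of these data known. Values were printed for called members (up to the 15 largest rises and falls), those at background in 1 genotype, the 5 brightest, uncalled ones of at least 2-fold, the 4 nearest the threshold and members of the fixed lists, with at most 2 rising and 2 falling unnamed accessions. Role groups were formed once the symbols were known, and other genes were named as their examples.

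Alternatives were other scalings (75th percentile, quantile, E1A spike-ins), the deposited table, normexp with an offset of 50 on the median signal (the files hold no mean), other filters, the mean over probes, eBayes with trend and robust settings, a replicate block, an adjusted p under 0.05, and leaving out each array.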

Additional observations from a re-analysis of the deposited data

How the results depend on the processing

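The count of 38 called RefSeq messenger RNA targets, 50% of them higher in grhIM, was 29 to 41 over the other scalings, the deposited table, the stricter filter, the mean over probes and the trend and robust fit. Normexp on the median signal lowered it to 5 (20% higher). It was 16 without a filter on dim probes, where all 519 were tested, and 78 at an adjusted p under 0.05. Fits that left out an array gave 0 to 31, taking the spread of the single remaining array from the other genotype. Nothing in the labels ties a replicate number to a batch, and with 2 pairs the deviations of same-numbered samples correlated at 0.248 over all targets and 0.149 over these, so the pairing is not established and the numbers were not used as pairs. The fit with a replicate block called 54.

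For the 33 targets named for their values, 330 comparisons with an alternative changed neither the direction nor the call, 106 ended a call, 10 added one and 9 turned the direction. No target whose direction turned was called. The difference of sta, 0.025, was -0.054 under spike-in scaling and -0.057 under normexp, and ranged from -0.082 to 0.102 when arrays were left out singly. The bright unnamed accession, at 0.036, became -0.044, -0.046 and -0.045 to 0.152 under the same settings, and that of COX5A, 0.117, ranged from -0.021 to 0.229 when arrays were left out. The median of the unnamed NM_001110 targets, whose alternatives were chosen after seeing the data, stayed above 0, at 0.163 with normexp and 0.225 to 0.401 without 1 wild-type array. Dim targets lie close to background, and their folds shrank in the deposited table and with normexp. With normexp the brighter RpL7 and TTLL1A shrank too, from -1.83 to -1.31 and from -3.86 to -3.11. CG9757 stayed at -4.19 and COX4 at -1.36. The cause of these changes was not tested.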
